A study of Homo sapiens with 8 samples.

Results

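Keratin gene levels were described in HT-29, a widely used cell line derived from a human colorectal adenocarcinoma. The 10 genes were chosen by name from the 60796 genes of the deposited table. KRT7, KRT8, KRT18, KRT19 and KRT20 are keratins of simple epithelia. KRT23, KRT80, KRT6B, KRT16 and KRT17 were grouped here as stress or squamous keratins, although KRT80 is found widely in epithelia and KRT23 is known from several carcinomas. KRT7, KRT8, KRT80 and KRT6B encode type II proteins, and the other 6 genes encode type I proteins.

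Keratins are the intermediate filament proteins of epithelial cells. A filament forms only when a type I protein pairs with a type II protein, and the pairs differ between tissues. KRT8 with KRT18 is the basic pair of simple epithelia such as the gut lining, and KRT19 and KRT20 are further type I partners there. KRT20 marks differentiated enterocytes and goblet cells, while KRT7, a keratin of ducts and glands, is low or absent in most colon epithelium. KRT6B, KRT16 and KRT17 are known from skin, where they appear after wounding and in hyperproliferative epidermis.

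The cells were labelled as control, as treated with 5-fluorouracil (5-FU, a drug that inhibits thymidylate synthase), or as treated with an extract of MRQ 74 rice (74 3NP extract) or MRQ 76 rice (76 3P extract), each for 24 h or 48 h. The extracts were given at their IC50 (the dose at the midpoint of inhibition), per the labels' protocols, and no dose is given for 5-FU. The sources used here do not spell out 3NP and 3P. The treatment field of the labels reads plant extract throughout, also for the controls and 5-FU, so groups were taken from the titles. Each treatment and time had 1 library, 8 in all, so each test averaged a treatment over both times, with n = 2 libraries. All cells came from 1 line, and nothing in the labels ties the libraries to separate cultures. With 1 library per treatment and time, no spread between replicates was measured. The SEs and p-values rest on how treatment differences vary between 24 h and 48 h in these libraries. That variation may be technical or a real change with time.

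Reads on genes, recovered from the deposited values, ranged from 18141663 to 28048517 per library, and genes above 0 from 23111 to 26712. Mitochondrial genes took 6.83% of reads in the 76 3P extract 48 h library and 5.52% with 5-FU at 48 h, the controls being at 2.96% and 3.18%. Of 8 colon epithelium markers, 7 reached FPKM 1 in some library, and their sum ranged from 415 to 502. GPA33 was at most 0.0938 and CDH17 at most 2.12, although the labels call the cells enterocytes. Of 6 basal keratinocyte markers 2 reached FPKM 1, COL17A1 and KRT15, and the sum ranged from 4.47 to 16.9, while KRT5, KRT14, DSG3 and TP63 were at most 0.154. Of 4 suprabasal markers measured, 2 reached FPKM 1, KRT10 and IVL, and the sum ranged from 23.5 to 52.8, with KRT1 at 0 in all 8 libraries. Both keratinocyte sums were highest in the 5-FU 48 h library, and their part in the keratin levels there was not tested. Fibroblast markers summed to between 1.10 and 6.28, nearly all of it COL1A1, with COL1A2 at 0, and endothelial markers summed to at most 0.541, with CDH5 at 0. The leukocyte markers summed to between 216 and 601, nearly all of it LYZ, a lysozyme gene that epithelial cells also use, while PTPRC was at most 0.00654.

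Among the 10 keratins, KRT6B stands in a group of near-identical copies, so a stretch of coding sequence is shown for the copies whose reads could be confused. It covers coding bases 643 to 702 of GENCODE 29 on GRCh38, minus strand of chromosome 12. Capitals mark, in KRT6B, the bases that differ from both copies and, in the copies, the bases that differ from KRT6B.
KRT6B: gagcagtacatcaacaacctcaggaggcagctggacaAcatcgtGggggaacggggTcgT
KRT6A: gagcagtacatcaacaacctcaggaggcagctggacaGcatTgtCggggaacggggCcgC
KRT6C: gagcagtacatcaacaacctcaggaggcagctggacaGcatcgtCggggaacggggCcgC
Over the whole coding sequence of 1692 bases, KRT6B differed from KRT6A at 42 bases and from KRT6C at 25. Of all 150-base windows of the KRT6B coding sequence, 16.5% were also found in another keratin gene, most often KRT6C, against 0.866% for KRT16 and 0 for the other 8 keratins. Reads from KRT6B are therefore partly uncertain. The copies themselves were low, KRT6A at most 0.251 and KRT6C at most 0.105 FPKM in any library.

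The main simple keratins made up most of the keratin RNA in every library. FPKM (fragments, here called reads, per kilobase of gene length, scaled for depth by the authors) is comparable between genes as a per-length level. In the controls at 24 h and 48 h, KRT8 (ENSG00000170421, GRCh38 chromosome 12, 52897187 to 52949954) stood at 764 and 696 FPKM. KRT18 (ENSG00000111057, chromosome 12, 52948871 to 52952906), the only type I keratin of the 10 on that chromosome, stood at 735 and 683 FPKM. KRT19 (ENSG00000171345, chromosome 17, 41523617 to 41528308) was next, at 302 and 293 FPKM. KRT8, KRT18 and KRT19 together held between 86.8% and 92.8% of the summed FPKM of the 10 genes, and all 10 took between 0.601% and 1.04% of the reads on genes.

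Below them came KRT80 at a control mean of 94.4 FPKM, KRT20 at 61.7 and KRT17 at 52.4. The remaining 4 were at about FPKM 1 or lower, with control means of 1.01 for KRT7, 0.870 for KRT6B, 0.641 for KRT23 and 0.164 for KRT16. In this order the control libraries overlapped between KRT8 and KRT18, between KRT20 and KRT17, between KRT7 and KRT6B and between KRT6B and KRT23, so those neighbours were not separated. The near equality of KRT8 and KRT18 holds per length, since the table gives KRT8 a length of 6881 bases and KRT18 one of 3069, and KRT8 had between 2.27 and 2.59 reads for each KRT18 read. The KRT8 and KRT18 genes also overlap by 1084 bases on opposite strands, and the sources used here do not say whether counting used strand.

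**Figure D1:**
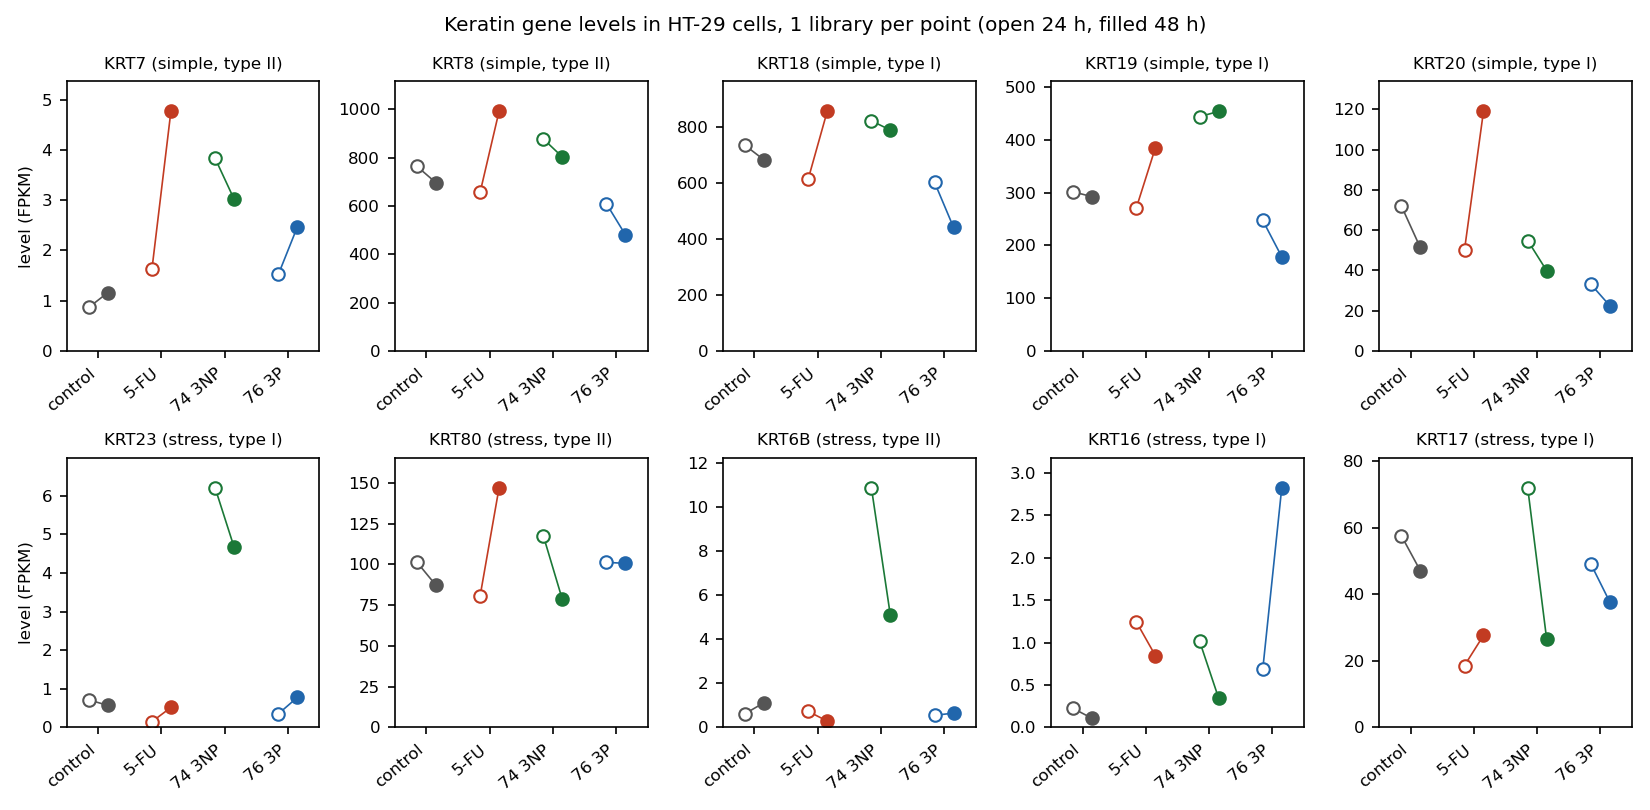
Level in FPKM (vertical axis, linear, from 0, scaled for each gene) of the 10 keratin genes by treatment, with 1 library per point, open at 24 h and filled at 48 h, joined within a treatment. KRT23 and KRT6B stand out in the 74 3NP extract libraries, at 6.20 and 4.67 and at 10.9 and 5.08 FPKM, and KRT16 in the 76 3P extract 48 h library, at 2.82 FPKM.

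All 10 genes passed the filter on low values, which asked for FPKM 1 in 2 or more libraries, and 13388 genes passed in all. KRT23 passed only through the 74 3NP extract libraries and KRT16 only through 3 treated libraries, so a difference was built into their passing. KRT6B passed through 1 control library and the 74 3NP extract libraries, so its passing also depended in part on its level with that extract. None of the 10 passed the test in any comparison by limma with a Benjamini-Hochberg threshold of 0.05. With 5-FU 0 of 10 were called, against 5.53% of all genes, and the median difference from control was 0.13 on the log2(FPKM + 1) scale against 0.00 for all genes. With the 74 3NP extract 0 of 10 were called, against 0.0523% of all genes, and the medians were 0.35 and -0.03. With the 76 3P extract 0 of 10 were called, against 0% of all genes, and the medians were -0.24 and -0.05. The simple and the stress or squamous medians were 0.14 and -0.32 with 5-FU, and 0.20 and 0.50 with the 74 3NP extract. With the 76 3P extract they were -0.46 and -0.08. At an unadjusted p under 0.05, the limma counts were 2 of 10 with 5-FU, 3 with the 74 3NP extract and 2 with the 76 3P extract, against 3885, 1623 and 2356 of all genes. Limma voom on the recovered reads also called 0 of the 10 in these comparisons, with 1072, 0 and 96 calls over all genes.

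At single times, where 1 library was set against 1 and no test was made, the members that differed from the same-time control 2-fold or more in FPKM + 1 were few. At 24 h they were KRT17 with 5-FU (1 of 10, against 4.29% of all genes), KRT7, KRT23 and KRT6B with the 74 3NP extract (3 of 10, against 4.49%), and KRT20 with the 76 3P extract (1 of 10, against 2.62%). At 48 h they were KRT7 and KRT20 with 5-FU (2 of 10, against 15.7%), KRT23 and KRT6B with the 74 3NP extract (2 of 10, against 3.14%), and KRT20 and KRT16 with the 76 3P extract (2 of 10, against 10.2%).

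The simple pair was steady in the controls and varied in parallel across the treatments. KRT8 was at 655 and 991 FPKM with 5-FU at 24 h and 48 h, at 877 and 803 with the 74 3NP extract, and at 609 and 480 with the 76 3P extract. KRT18 was at 615 and 856 FPKM with 5-FU, at 823 and 789 with the 74 3NP extract, and at 602 and 441 with the 76 3P extract. For both genes the 2 libraries of the 74 3NP extract lay above both controls, those of the 76 3P extract lay below both, and those of 5-FU lay on either side. The largest fitted difference of the pair from control was that of KRT18 with the 76 3P extract, at -0.46 (SE 0.27) in log2(FPKM + 1), with a limma adjusted p of 0.411. In the 76 3P extract 48 h library, which also had the highest mitochondrial share, the KRT8 ratio to control was 0.690 (95% exact counting interval 0.683 to 0.696). The part of that library's RNA quality in the value was not tested. In bulk RNA, fewer keratin-expressing cells and less keratin RNA per cell cannot be told apart. Pseudogenes of KRT8 were low, the highest being KRT8P3 at between 3.11 and 8.04 FPKM.

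KRT19, the type I keratin that lacks most of the tail domain, separated the extracts more than KRT8 did. It stood at 445 and 454 FPKM with the 74 3NP extract and at 248 and 179 with the 76 3P extract, against 272 and 385 with 5-FU. The 74 3NP extract libraries were above all 6 others, and the 76 3P extract libraries were below all 6 others. The difference between the extracts was 1.09 (SE 0.27) in log2(FPKM + 1), with a limma adjusted p of 0.193. The fitted difference from control was 0.60 (SE 0.27) for the 74 3NP extract and -0.50 (SE 0.27) for the 76 3P extract, with limma adjusted p-values of 0.418 and 0.372. The former was called, at 0.0247, when only the libraries compared were fitted, and ranged over all alternatives from 0.0247 to 0.9999. Fitting only the libraries compared called 1344 of 13388 genes for the 74 3NP extract, against 7 with all 8 libraries. KRT19 FPKM per KRT8 FPKM was 0.507 and 0.566 with the 74 3NP extract, against 0.395 and 0.420 in the controls and 0.372 to 0.414 in the other 4 libraries. A ratio within a library does not depend on the scaling between libraries, and this one was highest in both 74 3NP extract libraries.

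KRT20 (ENSG00000171431, chromosome 17, 40875889 to 40885242) varied most among the abundant keratins. It was at 72.1 and 51.4 FPKM in the controls, 33.1 and 22.4 with the 76 3P extract, 54.8 and 39.8 with the 74 3NP extract, and 50.3 and 119 with 5-FU. Both 76 3P extract libraries were below all 6 others, and the 5-FU 48 h library was the highest of the 8. Against the same-time control the 76 3P extract ratio was 0.459 (counting interval 0.433 to 0.486) at 24 h and 0.436 (0.405 to 0.468) at 48 h. The fitted difference was -1.13 (SE 0.41) in log2(FPKM + 1), with a limma adjusted p of 0.217, the 152nd lowest of 13388 genes. Fitted on only the libraries compared, it was called at 0.0473, and the limma adjusted p ranged over all alternatives from 0.0473 to 0.827. Fitting only the libraries compared called 288 of 13388 genes for the 76 3P extract, against 0 with all 8 libraries. With 5-FU the KRT20 ratio to control was 0.697 (0.660 to 0.737) at 24 h and 2.32 (2.20 to 2.44) at 48 h, opposite directions at the 2 times. The fitted KRT20 difference with 5-FU was 0.34 (SE 0.41), with a limma adjusted p of 0.605. Over all alternatives it ranged from -0.52, without the 5-FU 48 h library, to 1.20, without the 5-FU 24 h library. KRT20 also drifted in the controls, the 48 h level being 0.713 of the 24 h level.

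The promoter of KRT20 is shown because CDX2, an intestinal transcription factor known to drive KRT20, was among the factors measured. The stretch comes from RefSeq, GRCh38.p14 chr17:40885193-40885492, minus strand, and holds 250 bases before the gene start and 50 after it. Capitals mark a match to TTTATG, a core of sites bound by CDX proteins, read here on the other strand at position -29 from the start.
KRT20: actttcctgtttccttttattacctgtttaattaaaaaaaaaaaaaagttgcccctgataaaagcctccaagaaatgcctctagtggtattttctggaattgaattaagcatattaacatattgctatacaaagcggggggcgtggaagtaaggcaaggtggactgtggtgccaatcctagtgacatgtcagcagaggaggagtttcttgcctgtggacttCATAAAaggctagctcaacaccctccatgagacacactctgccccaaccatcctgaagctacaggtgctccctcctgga
The same letters resemble a TATA box and lie where one usually does, so the match is a description and not a site. Of 35116 promoters of that length, 10.6% held TTTATG on either strand, and 2 of the 10 keratins, KRT8 and KRT20, were in the promoter table. CDX2 stood at 1.10 and 1.29 FPKM in the controls, 3.22 and 6.24 with the 74 3NP extract, 2.34 and 3.15 with the 76 3P extract, and 1.31 and 1.5 with 5-FU. All 4 extract libraries were above both controls in CDX2 and the 4 libraries were below the same-time control in KRT20. A link between the levels of the 2 genes was not tested. The CDX2 difference with the 74 3NP extract was 1.33 (SE 0.22) with a limma adjusted p of 0.109. CDX1 was at most 0.355 FPKM and did not pass the filter.

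KRT7 (ENSG00000135480, chromosome 12, 52232520 to 52252186) was low in the controls and higher in each of the 6 treated libraries. It was at 0.864 and 1.16 FPKM in the controls, 1.62 and 4.77 with 5-FU, 3.83 and 3.02 with the 74 3NP extract, and 1.52 and 2.46 with the 76 3P extract, from 75 to 318 reads. No treated library overlapped the controls, and the 5-FU 48 h library was the highest. The fitted difference was 1.14 (SE 0.31) for the 74 3NP extract, 0.96 (SE 0.31) for 5-FU and 0.56 (SE 0.31) for the 76 3P extract on the log2(FPKM + 1) scale. The limma adjusted p-values were 0.248, 0.0929 and 0.382. KRT7 was called with the 74 3NP extract on only the libraries compared, at a limma adjusted p of 0.0102. That setting called 1344 of 13388 genes, against 7 with all 8 libraries, and no other alternative called KRT7 with that extract. With 5-FU the KRT7 difference ranged over all alternatives from 0.42 to 1.48, and was 1.46 without the 5-FU 24 h library. KRT7 overlaps KRT86 by 2887 bases on the same strand and KRT7-AS by 2401 bases on the opposite strand, so its few reads are partly uncertain. KRT86 was between 0.494 and 2.33 FPKM and KRT7-AS at most 1.10. KRT7-AS was highest in the 5-FU 48 h library, where KRT7 was highest too.

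KRT6B and KRT23 were the keratins that differed most, and both did so in the 74 3NP extract libraries. KRT6B (ENSG00000185479, chromosome 12, 52446651 to 52452146) was at 0.620 and 1.12 FPKM in the controls and at 10.9 and 5.08 with the 74 3NP extract. With 5-FU it was at 0.724 and 0.286 FPKM, and with the 76 3P extract at 0.546 and 0.647. The 2 libraries of the 74 3NP extract stood above all 6 others, on 477 and 217 reads against 31 and 59 in the controls. The ratio to control was 17.5 (counting interval 12.2 to 26.1) at 24 h and 4.54 (3.39 to 6.16) at 48 h. The fitted difference was 2.20 (SE 0.32) with a limma adjusted p of 0.0880, the 17th highest of 13388 genes. KRT6B entered those genes in part through its level with this extract. With no filter the limma adjusted p was 0.633.

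KRT23 (ENSG00000108244, chromosome 17, 40922700 to 40937646), a type I keratin known from several carcinomas, was at 0.712 and 0.570 FPKM in the controls and at 6.20 and 4.67 with the 74 3NP extract. With 5-FU it was at 0.147 and 0.515 FPKM, and with the 76 3P extract at 0.350 and 0.775. Again the 2 libraries of the 74 3NP extract stood above all 6 others, which were all below FPKM 1. The ratio to control was 8.71 (counting interval 6.37 to 12.2) at 24 h and 8.19 (5.80 to 11.8) at 48 h. The fitted difference was 1.96 (SE 0.26) with a limma adjusted p of 0.0682, the 21st highest of 13388 genes. KRT23 entered those genes only by being high in the 74 3NP extract libraries, which limits what its rank and adjusted p show. With no filter the limma adjusted p was 0.610. The antisense gene AC004231.1, which covers KRT23, was at most 0.257 FPKM. Both genes were called when the fit held only the 4 control and 74 3NP extract libraries, with limma adjusted p-values of 0.00431 for KRT6B and 0.000682 for KRT23. That fit called 1344 of 13388 genes, against 7 with all 8 libraries. Leaving out either 76 3P extract library could not move the differences, 2.20 for KRT6B and 1.96 for KRT23. The fit takes them from the control and 74 3NP extract libraries alone. Over all alternatives the adjusted p ranged from 0.00431 to 0.84 for KRT6B and from 0.000682 to 0.61 for KRT23.

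**Figure D2:**
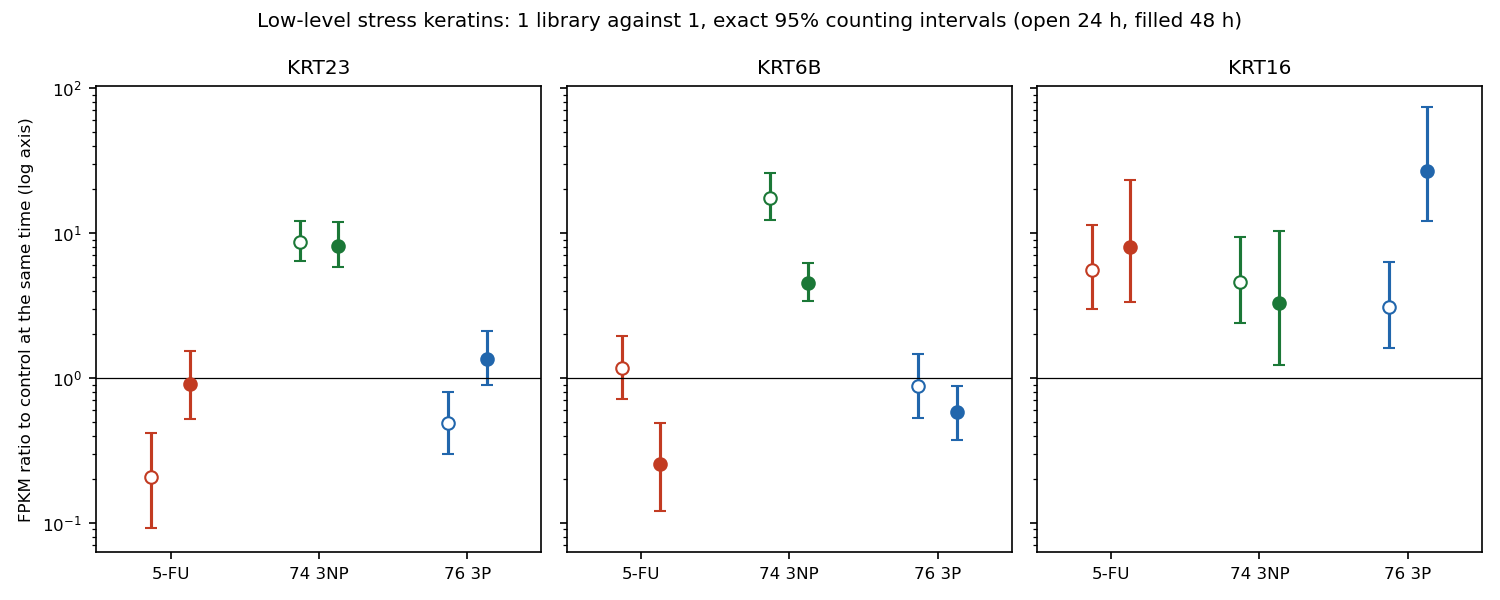
Ratio of FPKM to the same-time control (vertical log axis) for KRT23, KRT6B and KRT16, 1 library against 1, with exact 95% intervals that cover counting error only, open at 24 h and filled at 48 h. KRT23 and KRT6B lie far above 1 in the 74 3NP extract libraries, from 4.54 to 17.5, while all 6 KRT16 ratios are above 1 and the highest is 26.7.

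The extracts were also set against each other, 74 3NP minus 76 3P, in a test that rests on no control library for its difference. None of the 10 keratins was called, against 0% of all genes, although 5 had an unadjusted limma p under 0.05, as did 1726 of all genes. Limma voom on the recovered reads called 15 genes, KRT6B among them with an adjusted p of 0.0451 (range over all alternatives 0.0451 to 0.521). The KRT23 difference between the extracts ranged over all alternatives from 0.90 to 3.26. KRT6B was the 2nd highest of 13388 genes at 2.41 (SE 0.32) and KRT23 the 6th highest at 2.05 (SE 0.26), both with a limma adjusted p of 0.0739. KRT23 was among those genes only through the 74 3NP extract libraries, and KRT6B in part. All 5 simple keratins were higher with the 74 3NP extract, KRT8 by 0.63 (SE 0.28), KRT18 by 0.64 (SE 0.27) and KRT20 by 0.76 (SE 0.41) on the log2(FPKM + 1) scale. The 10 keratins had a median difference of 0.64, against 0.03 for all genes. The median was 0.64 for the simple keratins and 0.03 for the stress or squamous keratins, the latter like that of all genes.

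KRT16 (ENSG00000186832, chromosome 17, 41609778 to 41615899), a type I partner of KRT6 proteins, did not follow KRT6B. It was at 0.223 and 0.106 FPKM in the controls, 1.24 and 0.847 with 5-FU, 1.02 and 0.348 with the 74 3NP extract, and 0.685 and 2.82 with the 76 3P extract. Every treated library was above both controls, which held 12 and 6 reads, and the 76 3P extract 48 h library was the highest with 183 reads. Its ratio to control there was 26.7 (counting interval 12.0 to 73.6), against 3.07 (1.61 to 6.34) at 24 h. The fitted differences were 1.13 (SE 0.39) for the 76 3P extract, 0.81 (SE 0.39) for 5-FU and 0.50 (SE 0.39) for the 74 3NP extract, with limma adjusted p-values of 0.206, 0.210 and 0.622. The KRT16 difference with the 76 3P extract ranged over all alternatives from 0.37 to 3.06. KRT14, the gene closest to KRT16 with 85.4% identity of the coding sequence, was at most 0.114 FPKM. The 76 3P extract 48 h library also held the most genes above 0 and the largest mitochondrial share, whose part in its KRT16 level was not tested.

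KRT17 (ENSG00000128422, chromosome 17, 41619442 to 41624842), which neighbours KRT16, was abundant and lower with 5-FU. It was at 57.7 and 47.2 FPKM in the controls, 18.6 and 27.6 with 5-FU, 72.0 and 26.5 with the 74 3NP extract, and 49.1 and 37.7 with the 76 3P extract. Both 5-FU libraries were below both controls, and the 74 3NP extract libraries were the highest and the second lowest of the 8. The ratio to control with 5-FU was 0.323 (counting interval 0.303 to 0.344) at 24 h and 0.586 (0.550 to 0.625) at 48 h. The fitted difference was -1.17 (SE 0.39) with a limma adjusted p of 0.101, the 224th lowest of 13388 genes. It was called at 0.0214 on only the libraries compared, in a range over all alternatives of 0.0214 to 0.492. Fitting only the libraries compared called 1203 of 13388 genes with 5-FU, against 740 with all 8 libraries. By level, KRT17 and KRT16 stood on opposite sides of the controls with 5-FU.

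KRT80 (ENSG00000167767, chromosome 12, 52168996 to 52192014), a type II keratin found widely in epithelia, was the steadiest of the stress or squamous group. It was at 101 and 87.3 FPKM in the controls, 80.5 and 147 with 5-FU, 118 and 78.8 with the 74 3NP extract, and 101 and 101 with the 76 3P extract. Only the 5-FU 48 h library stood well above the rest, and the fitted differences from control lay between 0.03 and 0.21, each with an SE of 0.32. The antisense LINC00592, which covers KRT80, was at most 0.239 FPKM.

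**Figure D3:**
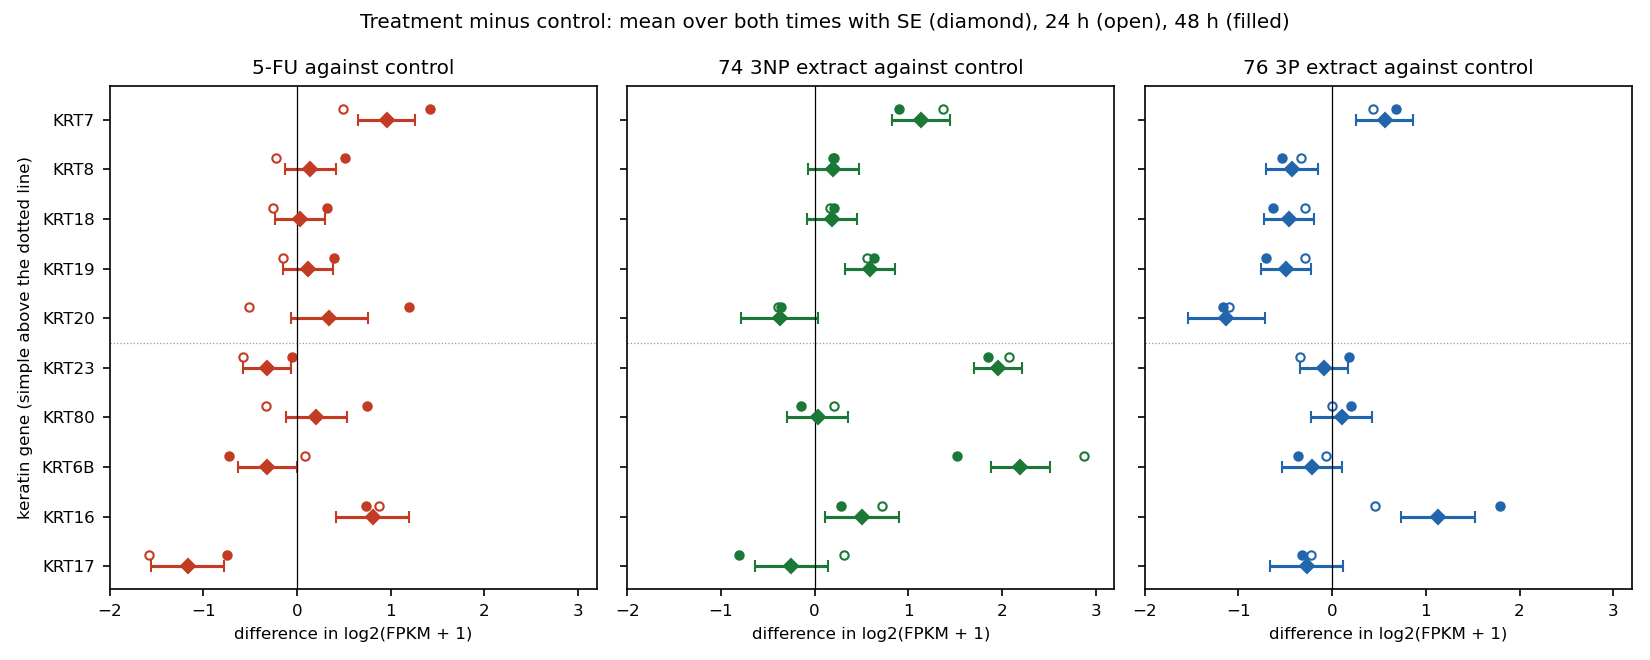
Difference from control in log2(FPKM + 1) (horizontal axis) for the 10 keratins and 3 treatments, as the mean over both times with its SE (diamond and bar) and at 24 h (open) and 48 h (filled), 1 library against 1. The largest means are KRT6B at 2.20 and KRT23 at 1.96 with the 74 3NP extract, and the times disagree most for KRT20 with 5-FU, at -0.51 and 1.20.

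Time alone moved little. For 48 h minus 24 h over the 4 treatments, 0 of 10 keratins were called by limma, against 0% of all genes, and 0 had an unadjusted p under 0.05, against 1394 of all genes. The differences ran from -0.38 (SE 0.27) for KRT17 to 0.39 (SE 0.22) for KRT7, and limma voom called 0 of the 10 and 0 of all genes. Within treatments the times did differ in value. From 24 h to 48 h with 5-FU, KRT20 was higher by 1.23, KRT7 by 1.14, KRT80 by 0.86 and KRT8 by 0.60 on the log2(FPKM + 1) scale, while in the controls KRT20 was lower, at -0.48. With the 74 3NP extract KRT17 was lower at 48 h, at -1.41, and with the 76 3P extract KRT16 was higher, by 1.18. These within-treatment differences compare 1 library with 1 and were not tested.

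The balance of the keratin groups differed between the libraries mainly through abundant members. Stress or squamous keratins summed to 8.58 and 7.90 FPKM per 100 FPKM of simple keratins in the controls. The value was 6.35 and 7.48 with 5-FU, 9.43 and 5.52 with the 74 3NP extract, and 10.2 and 12.7 with the 76 3P extract. Only the 76 3P extract libraries were above both controls at both times, and there the simple sum was lower, at 1493 and 1125 FPKM against 1874 and 1725. KRT80 and KRT17 held between 91.2% and 99.1% of the stress sum in every library. The sum of the low members KRT23, KRT6B and KRT16 was 18.1 and 10.1 FPKM with the 74 3NP extract, 4.24 in the 76 3P extract 48 h library, and between 1.56 and 2.11 in the other 5. The summed type I FPKM was 1.17 to 1.48 times the summed type II FPKM, lowest in the 76 3P extract 48 h library and highest in the 74 3NP extract 48 h library. This ratio rests on the gene lengths used, 6881 bases for the type II gene KRT8 and 3069 for the type I gene KRT18. In reads, KRT8 had 2.27 to 2.59 for each KRT18 read.

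**Figure D4:**
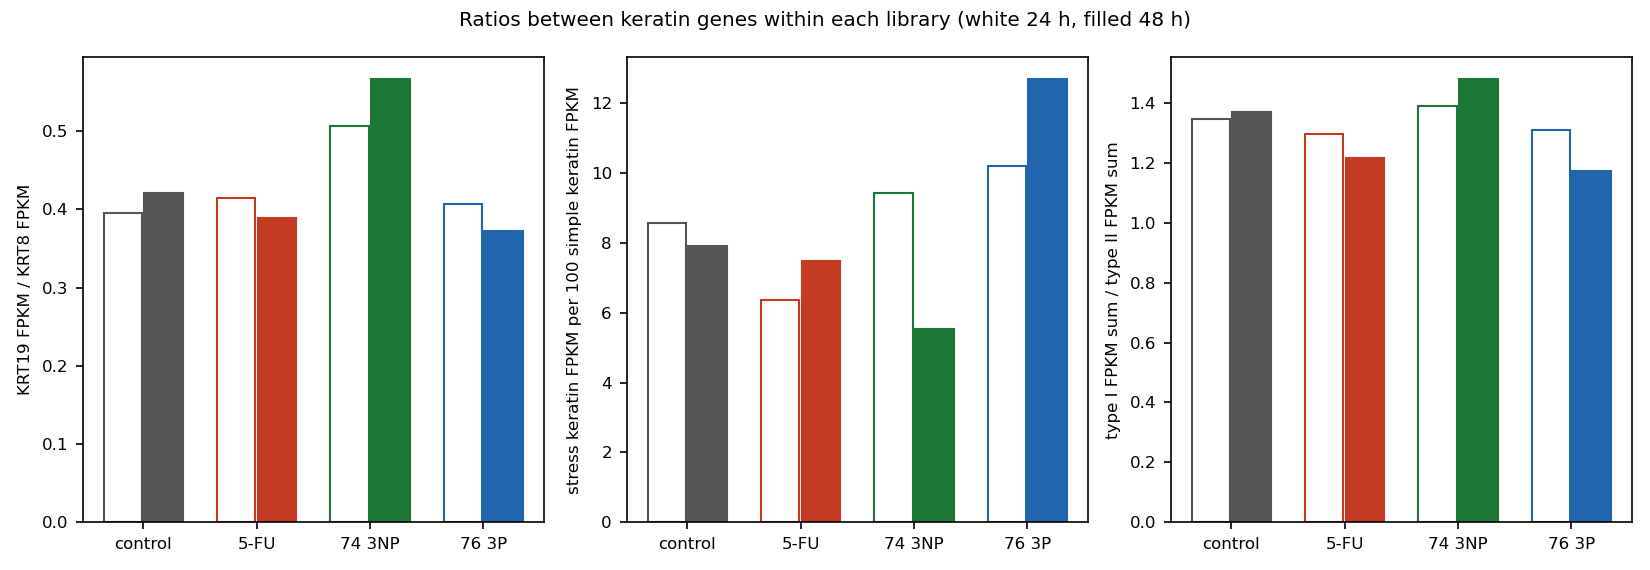
KRT19 per KRT8 FPKM, stress keratin FPKM per 100 simple keratin FPKM, and summed type I per summed type II FPKM (vertical axes from 0) in each library, white bars at 24 h and filled bars at 48 h. KRT19 per KRT8 is highest with the 74 3NP extract, at 0.507 and 0.566, and the stress ratio is highest with the 76 3P extract, at 10.2 and 12.7.

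Across the 8 libraries, as a description with no test, KRT8 and KRT18 levels had a Pearson r of 0.98 on the log2(FPKM + 1) scale, KRT18 and KRT19 one of 0.94, and KRT8 and KRT20 one of 0.86. KRT23 and KRT6B had an r of 0.96, carried by the 74 3NP extract libraries, and KRT18 and KRT16 one of -0.64. The points share library depth and scaling. Of 9497 genes with a mean FPKM of at least 2, those most like KRT20 were ACIN1, OPA3 and RIOX1 (r of 0.98, 0.97 and 0.97). Those most like KRT6B were RUVBL1, DCPS and PWWP3A (r of 0.97, 0.97 and 0.96), those most like KRT23 included TMEM177 and TST (0.97 and 0.95), those most like KRT7 were DUSP23, ETFB and AAMP (0.97, 0.96 and 0.96), those most like KRT16 were SPSB1, NUMBL and EAF2 (0.97, 0.95 and 0.95), and those most like KRT17 were BECN1, USP19 and ZNF276 (0.96, 0.95 and 0.93). KRT8, KRT18, KRT19 and KRT80 varied by an SD under 0.5 and were not searched.

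The table held 45 other keratin genes, of which 30 were above 0 in some library and 6 passed the filter. None of the 6 was called in any comparison by limma. Over all genes the share called was 5.53% with 5-FU, 0.0523% with the 74 3NP extract and 0% in the other comparisons. KRT10, a keratin of upper epidermal layers, was the most abundant of the 6, at between 22.9 and 51.4 FPKM, and was highest in the 5-FU 48 h library. KRT15, a basal keratin, was at 1.20 and 1.12 FPKM in the controls and at 2.29 and 7.60 with 5-FU, a difference of 1.30 (SE 0.38) with a limma adjusted p of 0.0788. KRT13, a type I keratin of internal squamous linings, was at 1.63 and 1.89 FPKM in the controls and at 6.02 and 3.81 with the 74 3NP extract, a difference of 1.08 (SE 0.32) with a limma adjusted p of 0.276. KRT83, a hair keratin, was at 1.94 and 1.42 FPKM in the controls and at 1.82 and 3.64 with 5-FU, a difference of 0.44 (SE 0.30). The hair keratins KRT81, KRT83 and KRT86 differed by at most 0.66 in size from control with each treatment.

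Genes that work with keratins were counted in lists, with calls by limma at the same threshold. A single call in lists this short is not set apart from the share of all genes called, which stands beside each count. Of 18 genes that link filaments to desmosomes and hemidesmosomes, 14 passed the filter, and 0 were called higher and 1 lower with 5-FU, against 5.53% of all genes. That gene, ITGB4, which anchors keratins at the cell base, fell by 0.83 (SE 0.19), from 68.1 and 55.1 FPKM in the controls to 38.5 at 24 h and a lower level at 48 h, with a limma adjusted p of 0.0477. JUP, the plakoglobin gene, was at 126 and 111 FPKM in the controls and at 131 and 235 with 5-FU. PKP1 was at most 3.52 FPKM and DST at most 2.52. Of 7 genes whose proteins bind or modify keratins, all passed and 1 was called with 5-FU, against 5.53% of all genes. It was the small heat shock gene HSPB1, at 149 and 386 FPKM against 71.5 and 101 in the controls. SFN, which encodes the 14-3-3 protein that binds KRT17 and KRT18, missed the threshold with a limma adjusted p of 0.0507, at 109 and 130 FPKM against 66.9 and 52.7. FAM83H and TRADD differed from control by at most 0.69 in size.

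Of 13 other intermediate filament genes 4 passed and 1 was called with 5-FU, against 5.53% of all genes. That gene, NES, which encodes nestin, rose by 1.12 (SE 0.22) with a limma adjusted p of 0.0363. NES stood at 0.803 and 1.52 FPKM in the controls, 3.38 and 3.87 with 5-FU, and 4.68 and 5.07 with the 74 3NP extract, where the limma adjusted p was 0.0990. The lamin gene LMNB1 was at 24.4 and 11.6 FPKM with the 76 3P extract against 56.7 and 54.2, a difference of -1.66 (SE 0.32) with a limma adjusted p of 0.0886. LMNB2 and LMNA differed by -0.74 and -0.25 there. VIM, the filament gene of mesenchymal cells, was at most 0.375 FPKM.

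Of 20 genes of squamous differentiation 19 were in the table and 9 passed, with 1 called higher and 0 lower with 5-FU, against 5.53% of all genes. That gene was S100A2, a calcium-binding protein gene, which rose by 1.15 (SE 0.26), from 1.70 and 1.67 FPKM to 4.09 and 5.93, with a limma adjusted p of 0.0467. The protease inhibitor gene SLPI was at 55.5 and 240 FPKM with 5-FU against 29.7 and 27.8, and the cornified envelope gene SPRR1B at 2.76 and 14.5 against 2.01 and 0.847, both short of the threshold with limma adjusted p-values of 0.0565 and 0.0878. SPRR2D was at most 1.90 FPKM. With the 74 3NP extract all 9 were higher than control and 0 were called, against 0.0523% of all genes. SPRR2D and SPRR1A passed the filter only through the 5-FU 48 h and 74 3NP extract 24 h libraries. For those genes a higher level was thus partly built in. The median difference of the 9 genes was 0.49 with that extract, against -0.03 for all genes. With 5-FU it was larger, at 0.77 against 0.00, with 7 of the 9 higher. With the 76 3P extract it was -0.22 against -0.05.

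Of 16 genes of regulators tied to epithelial keratins, all but ESRP1 transcription factors, 14 passed, with 0 called higher and 1 lower with 5-FU, against 5.53% of all genes. The call was ESRP1, which encodes an RNA-binding splicing regulator and fell by 1.24 (SE 0.27), from 47.6 and 42.9 FPKM to 25.8 and 13.2, with a limma adjusted p of 0.0428. OVOL1 was at 8.27 and 23.5 FPKM with 5-FU against 5.63 and 4.85, with a limma adjusted p of 0.0826, and GRHL3 at 4.37 and 9.22 against 3.08 and 2.21, with one of 0.0898. In all 5 lists 0 genes were called for either extract, against 0.0523% of all genes with the 74 3NP extract and 0% with the 76 3P extract. The 5-FU calls rest on few libraries, since 0 of all genes were called with 5-FU when either control library or the 5-FU 48 h library was left out, against 740 with all 8.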

How the data were processed

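The authors' deposited gene table gives FPKM per gene, with lengths and coordinates, and a second deposited table gives counts of sequenced and filtered reads (44361052 to 68674126 filtered reads per library) and percent values for GC content, per the file headers. The submitters' processing notes name HISAT2 2.0.5 for mapping and GRCh38 (hg38) as the build. The sources used here do not give the counter, annotation or strandedness.

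FPKM times gene length came out as whole reads for 100% of values within 0.01 reads. The unit is that of the FPKM values and may be a read pair, so these reads give no share of the filtered reads. Genes that reached FPKM 1 in 2 or more libraries were tested with limma 3.58.1 in R 4.3.3 on log2(FPKM + 1), a pseudocount that understates folds of low genes. Treatment and time were additive terms, with a variance trend, 3 residual degrees of freedom, two-sided tests, and Benjamini-Hochberg adjustment over 13388 genes within each of 5 contrasts, at 0.05. All 3 treatments share the 2 control libraries, so their differences are not independent. Read ratios carry exact 95% (Clopper-Pearson) intervals, which cover counting error only.

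The keratins and the lists were chosen with earlier results of these data known. Named were all 10 keratins, other keratins past the filter, up to 4 genes per list with the largest mean difference in size, and the 3 genes most like each keratin. Genes outside that rule, among them S100A2, VIM, CDX1 and KRT7-AS, were named after their values were seen. Coding sequences were compared with GENCODE 29, and 4 of the 10 genes have the same coordinates there. Promoters are RefSeq, GRCh38.p14. Alternatives were pseudocounts of 0.1 and 5, no filter, a filter at FPKM 5, total-read scaling, TMM scaling (edgeR 4.0.16), no variance trend, only the libraries compared, limma voom on recovered reads, and each library left out. Leaving out libraries for the group ratio was chosen after seeing the data. The scripts were tested on simulated data. The remaining steps used Python 3.11.15 (pandas 2.3.3, scipy 1.17.1, numpy 2.4.6, matplotlib 3.10.9).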

Additional observations from a re-analysis of the deposited data

Results flagged for a closer look

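Several keratins stood on opposite sides of the control at 24 h and 48 h, 1 library against 1 at each time, and the difference between the times was not tested. With 5-FU, the log2(FPKM + 1) difference from control at 24 h and 48 h was -0.22 and 0.51 for KRT8, -0.26 and 0.33 for KRT18, and -0.15 and 0.40 for KRT19. It was -0.51 and 1.20 for KRT20 and -0.33 and 0.75 for KRT80. All 5 were thus lower at 24 h and higher at 48 h, and the 48 h values rest on the same 5-FU library and the same control library. With the 74 3NP extract, the difference was 0.21 and -0.15 for KRT80 and 0.32 and -0.81 for KRT17, the opposite order.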

How the results depend on the processing

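No keratin was called in any comparison by limma on log2(FPKM + 1) with all 8 libraries. With only the libraries compared, 1 was called for 5-FU (KRT17), 4 for the 74 3NP extract (KRT23, KRT7, KRT19 and KRT6B) and 1 for the 76 3P extract (KRT20). That setting called 1203 of 13388 genes for 5-FU, 1344 for the 74 3NP extract and 288 for the 76 3P extract. With all 8 libraries these counts were 740, 7 and 0. Limma voom called 1 between the extracts (KRT6B). With 1 library left out, the count ranged from 0 to 2 for 5-FU (KRT7 and KRT20 without its 24 h library), from 0 to 2 for the 74 3NP extract (KRT23 and KRT6B without either 76 3P extract library), from 0 to 1 for the 76 3P extract (KRT16 without its 24 h library) and from 0 to 1 between the extracts (KRT23 without the 76 3P extract 24 h library). A lone library is then assumed to vary like the others. The number of calls over all genes moved with the library left out too, so these counts do not set the keratins apart. The cause was not tested. Over all genes, the 740 calls with 5-FU became 486 with a pseudocount of 5, 0 with no filter, 1203 with only the libraries compared, and 0 to 2612 with 1 library left out. The difference of 5-FU from control in the log2 stress to simple ratio, averaged over both times, was -0.26, and -1.21 without KRT8 and KRT80, the largest member of each sum.

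Among 425 other alternative values, those from changing the filter, the variance trend or the libraries fitted could not reverse. These settings do not move a difference. Of the 425 values 11 reversed, all of size 0.14 or less. With total-read scaling they were KRT18 with 5-FU (-0.084), KRT80 with the 74 3NP extract (-0.011), KRT17 between the extracts (-0.036), and KRT19 (-0.018) and KRT80 (-0.0078) between times. With TMM and voom they were KRT17 between the extracts (-0.0057 and -0.0077) and KRT8 between times (0.022 and 0.024). With pseudocounts of 5 and 0.1 they were KRT23 (-0.0098) and KRT16 (-0.14) between times. With 1 library left out, 45 of 390 values reversed. A treatment difference could not move when the library left out belonged to neither group compared, so those values could not reverse. For 5-FU the ranges were KRT8 -0.25 to 0.54, KRT18 -0.31 to 0.37, KRT19 -0.21 to 0.45, KRT20 -0.52 to 1.20, KRT80 -0.36 to 0.77 and KRT6B -0.72 to 0.094. For the 74 3NP extract they were KRT80 -0.36 to 0.43 and KRT17 -0.93 to 0.44. For the 76 3P extract they were KRT23 -0.29 to 0.13, KRT80 -0.053 to 0.25 and KRT6B -0.63 to 0.19. Between the extracts they were KRT80 -0.46 to 0.33, KRT16 -1.38 to 0.14 and KRT17 -0.66 to 0.71. Between times they were KRT8 -0.20 to 0.11, KRT18 -0.20 to 0.10, KRT19 -0.16 to 0.16, KRT20 -0.49 to 0.10, KRT23 -0.025 to 0.15, KRT80 -0.27 to 0.21, KRT6B -0.43 to 0.019 and KRT16 -0.34 to 0.25. KRT6B and KRT23 stayed higher with the 74 3NP extract, against control and against the 76 3P extract, under every alternative that gave a value. Several of these alternatives could not move the difference. The filter at FPKM 5 left 7 keratins, without KRT7, KRT16 and KRT23, and KRT23 did not pass the filter without either 74 3NP extract library. Libraries were matched across treatments by time, through the time term, and the labels number no replicates that could form another block. KRT16, KRT23 and KRT6B are limited most by depth, at 6 to 59 reads in the controls.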
